A study of Mus musculus with 68 samples.

Results

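The motile cilium genes of mouse lung described here are 45 genes of the RNA-seq count table, chosen by symbol: Foxj1, Fam183b, Spata18, Mcidas, and every symbol that starts with Dnah, Dnaic, Dnali, Tekt, Rsph, Spag6, Spag16, Spag17, Ift or Drc followed by digits. A gene was kept where its mean reached 0.5 CPM (reads of the gene per 1000000 reads of the library after scaling) in any of the 4 groups. Of 23872 rows with a value in every library 46 matched, and 45 passed the level. Rsph6a, with a highest group mean of 0.17 CPM, was left out, and Tekt3, with 0.657 CPM, was the lowest of those kept. All 45 also passed the filter on low counts and stood among the 17377 genes tested.

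The lungs came from male wild-type mice of 2 inbred strains, the common laboratory strain C57BL/6J and CAST/EiJ, a strain derived from wild Mus musculus castaneus. The mice had breathed clean air or 1,3-butadiene (BD), a volatile industrial carcinogen, for 6 h a day on weekdays over 2 weeks. RNA-seq covered 5 libraries of C57BL/6J in clean air and 6 with BD, 7 of CAST/EiJ in clean air and 5 with BD, and 1 further library labelled CAST/EiJ BD that is shown apart; each is named by the number in its title. All of it is whole lung, so fewer ciliated cells and less RNA per ciliated cell cannot be told apart. The labels do not say whether libraries of a group came from separate animals, so the p-values measure the spread between libraries, which may be technical.

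Motile cilia are the beating hairs of multiciliated airway cells, which move mucus out of the lung. Their core, the axoneme, is a ring of doublet microtubules around a central pair. Rows of dynein arms, built from heavy, intermediate and light chains, pull neighbouring doublets past each other; radial spokes and the central apparatus set the rhythm, the dynein regulatory complex links doublets and limits their sliding, and tektins are filaments inside the doublets. Intraflagellar transport (IFT) carries parts along the cilium, and it serves the single immotile cilium of many other cell types as well. Mcidas starts the multiciliated cell programme with E2F factors, and Foxj1, a forkhead transcription factor, switches on genes of the motile axoneme together with RFX factors. By these roles the set held 11 dynein heavy chains, 3 intermediate and light chains, Drc1 of the dynein regulatory complex, 5 radial spoke genes, 3 central apparatus genes, 5 tektins, 13 IFT genes, the regulators Foxj1 and Mcidas, and Fam183b and Spata18. The 32 members outside IFT are called axonemal below as a shorthand, the 2 regulators included.

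RFX factors bind the X-box, whose arms read GTTNCC and GGNAAC. The 250 bases upstream of the annotated start (RefSeq, GRCm38.p6, a C57BL/6J assembly) were on hand for 39 of the 45 members. GTTGCC stood on either strand for 14 of these 39 members (35.9%), against 11.8% of 27025 genes. A gene was counted where any of its promoters held the match. Some genes have more than 1 promoter, and of all 32851 promoters searched at the same length 10.4% held it. Both arms with 0 to 3 bases between them stood in 2 of 39 (5.13%), Fam183b and Ift57, against 0.788% of genes and 0.673% of promoters; both pairs also hold a GTTGCC. The forkhead word TGTTTAC stood in 2 of 39 (5.13%), Dnah17 and Tekt3, against 3.54% of genes and 3.17% of promoters. These matches describe letters in the reference sequence and were not tested. Promoters were joined to the count rows by symbol alone. Spag6 has a close copy elsewhere in the genome, so its sequence below may belong to another gene than the one counted. Shown here are the promoters of 4 members to which the results return: Fam183b and Ift57, which hold the pair and differ clearly between strains, and Spag6 and Drc1, lower with BD in CAST/EiJ. Capitals mark GTTGCC, its reverse complement or the pair, and each sequence runs 5′ to 3′ towards the start. The pair lay 16 bases upstream of the start in Fam183b and 60 bases upstream in Ift57.
Fam183b, chr11:58801961-58802210, minus strand: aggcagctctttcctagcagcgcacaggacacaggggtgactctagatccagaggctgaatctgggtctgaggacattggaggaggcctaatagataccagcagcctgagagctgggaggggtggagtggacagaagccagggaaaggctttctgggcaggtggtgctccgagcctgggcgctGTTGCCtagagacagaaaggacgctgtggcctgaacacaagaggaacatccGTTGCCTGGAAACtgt
Ift57, chr16:49699044-49699293, plus strand: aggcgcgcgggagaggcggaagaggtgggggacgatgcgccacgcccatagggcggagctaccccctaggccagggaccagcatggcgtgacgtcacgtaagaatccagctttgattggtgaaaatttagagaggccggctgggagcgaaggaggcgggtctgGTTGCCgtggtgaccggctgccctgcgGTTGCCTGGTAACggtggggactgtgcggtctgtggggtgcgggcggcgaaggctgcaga
Spag6, chr2:18698772-18699021, plus strand: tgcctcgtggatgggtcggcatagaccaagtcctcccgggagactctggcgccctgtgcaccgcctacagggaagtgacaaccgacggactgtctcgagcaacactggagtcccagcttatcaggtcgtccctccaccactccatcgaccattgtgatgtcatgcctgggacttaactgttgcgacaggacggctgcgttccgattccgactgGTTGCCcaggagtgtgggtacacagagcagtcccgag
Drc1, chr5:30281143-30281392, plus strand: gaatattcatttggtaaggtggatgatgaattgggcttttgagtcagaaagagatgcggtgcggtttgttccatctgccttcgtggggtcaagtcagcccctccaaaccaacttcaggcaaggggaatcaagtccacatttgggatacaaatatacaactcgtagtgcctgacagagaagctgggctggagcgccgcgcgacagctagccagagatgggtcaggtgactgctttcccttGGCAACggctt

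Genes of alveolar type 2, alveolar type 1 and club cells were abundant in every library, as the label lung calls for (alveolar type 2 sums of 21270 to 43710 CPM). The libraries held 10597990 to 50001571 counts, so that a level of 1 CPM stood for at least 10.6 reads in each. Library number 8, labelled CAST/EiJ BD, stood apart from its group. Fam183b had 198 counts in it, against 0 to 4 counts in each of the other 12 libraries labelled CAST/EiJ. For 32 of the 45 members its level lay within the C57BL/6J BD range, and for 14 within the CAST/EiJ BD range. Of the 27 members whose BD ranges did not overlap between strains, 22 were closer in number 8 to the C57BL/6J mean. The C57BL/6J BD range comes from 6 libraries and the CAST/EiJ BD range from 5. For these counts the share over all genes was not worked out. Number 8 enters no mean and no test here, and member counts with it kept under its label are given beside those it changes.

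The title numbers also split the clean air groups. Numbers over 100 were held by 5 of the 7 CAST/EiJ clean air libraries (titles RNA_101 to RNA_105) and by 1 of the 5 C57BL/6J clean air libraries (RNA_106), and by no BD library; the labels do not say what the numbers stand for. In CAST/EiJ clean air, numbers 1 and 2 had summed axonemal levels of 1149 and 1324 CPM, against 621 to 783 CPM in RNA_101 to RNA_105. Both lay above all of RNA_101 to RNA_105 for 20 of the 32 axonemal members and below them for 1, with a median ratio of means of 1.58, while among the 13 IFT genes both lay above for 3 and below for 1 (median ratio 1.03). Dnah2, an inner arm heavy chain, shows the split: 41.0 and 49.9 CPM in numbers 1 and 2 against 18.5 to 21.0 CPM in RNA_101 to RNA_105. In C57BL/6J, RNA_106 lay above numbers 3 to 6 for 12 axonemal members, below for 8 and within for 12. For these counts in both strains the share over all genes was not worked out. Some other lists moved with the split in CAST/EiJ, and some did not. Numbers 1 and 2 held 26580 and 28380 CPM of 12 alveolar type 2 cell genes against 37040 to 43710 CPM in RNA_101 to RNA_105, and 39.9 and 94.3 CPM of 14 cartilage genes, which mark large airways, against 11.8 to 21.0 CPM. Their club and secretory cell sums, 14620 and 20110 CPM, were not separate from the 14590 to 17380 CPM of RNA_101 to RNA_105. Nor were basal and squamous sums (733 and 61.7 CPM against 17.6 to 2224 CPM). The part of airway content or of the numbering in these levels was not tested. Counts of genes called that rest on CAST/EiJ clean air are therefore given with and without the libraries numbered over 100.

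**Figure D1:**
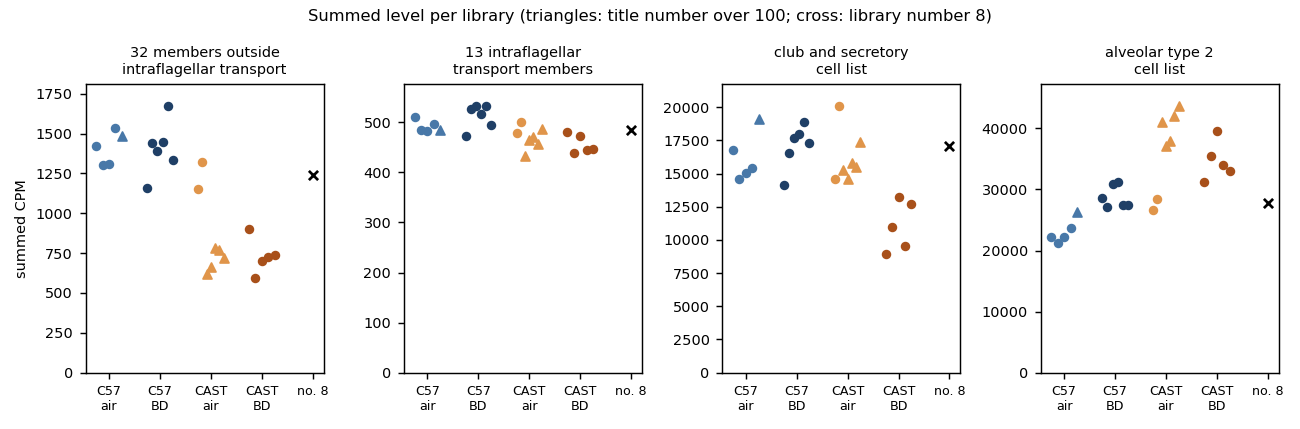
Summed level in CPM (vertical axis) of the 32 axonemal members, the 13 IFT members, the club and secretory cell list and the alveolar type 2 cell list, 1 point per library by group; triangles are title numbers over 100 and the cross is library number 8. The axonemal sum of CAST/EiJ clean air divides into 1149 and 1324 CPM in numbers 1 and 2 and 621 to 783 CPM in RNA_101 to RNA_105, and IFT sums lie between 433 and 533 CPM in every library.

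With all libraries, most motile cilium genes were lower in CAST/EiJ than in C57BL/6J lungs in clean air, 10 of 11 dynein heavy chains among them. A few, led by Rsph1, Ift57 and Spag6, were higher. With edgeR's quasi-likelihood test and Benjamini-Hochberg adjustment over all genes (called at an adjusted p under 0.05), 25 of the 45 members were lower and 5 higher. Over all genes tested 31.0% were lower and 29.4% higher. The median log2 fold of the members was -0.40, against 0.00 for all genes. Ranges of the 2 groups did not overlap for 18 members (14 lower, 4 higher; 40.0%), against 31.9% of all genes. Axonemal members supplied most of the lower calls (21 of 32, with 2 higher; median -0.63), and IFT genes were split (4 lower and 3 higher of 13; median -0.11). Alignment was to the C57BL/6J-based mm9 assembly for both strains; its part in differences between strains was not tested.

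Without the libraries numbered over 100, which leaves 2 CAST/EiJ clean air and 4 C57BL/6J clean air libraries, 13 members were lower and 6 higher, against 22.1% and 21.7% of all genes in that setting. Of the 30 calls 17 were made again, and the members' median was -0.15. Of the axonemal members 10 were lower and 4 higher, of the IFT genes 3 lower and 2 higher, and of the 11 heavy chains 4 lower and 1 higher. The outer arm gene Dnah5 stood at a log2 fold of -0.38 there (adjusted p = 0.0815), against -1.12 with all libraries, and Dnali1 from -0.49 to 0.01 (adjusted p = 0.977). Dnah7b, Dnah8, Dnah10, Dnah17, Spata18, Fam183b, Spag16, Spag17, Rsph3a, Rsph3b, Ift46, Ift140 and Ift172 were called lower in both settings, and Rsph1, Spag6, Ift52 and Ift57 higher in both. Dnah7a and Rsph4a were called higher only in this setting, at log2 folds of 0.66 (adjusted p = 0.00142) and 0.72 (adjusted p = 0.00187). They stood at 0.12 and 0.14 with all libraries.

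Among the regulators, Foxj1 stood at 36.1, 45.3, 36.6, 50.6 and 69.5 CPM in C57BL/6J clean air. In CAST/EiJ clean air it ran from 29.2 to 55.8 CPM with a median of 44.6. The ranges overlap over most of their width, and the fold was -0.14 ± 0.19 (log2 ± SE; adjusted p = 0.529). Mcidas was low, at 0.750, 0.459, 0.749, 0.697 and 0.851 CPM in C57BL/6J and between 0.391 and 1.14 CPM (median 0.584) in CAST/EiJ. The means were 0.701 ± 0.146 CPM (SD, n = 5) and 0.674 ± 0.258 CPM (SD, n = 7), with no call (adjusted p = 0.855).

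Of the 11 dynein heavy chains, 10 were lower in CAST/EiJ clean air with all libraries, and Dnah7a was the one without a call. Dnah10, an inner arm chain, had the lowest fold among them, 98.5 ± 12.1 CPM (SD, n = 5) in C57BL/6J against 24.6 ± 10.8 CPM (SD, n = 7) in CAST/EiJ, 4.02-fold lower (adjusted p = 9.78e-08). Its 7 CAST/EiJ libraries reached at most 41.9 CPM and the 5 C57BL/6J libraries at least 81.1 CPM. Dnah5, the main outer arm heavy chain of airway cilia, stood at 268, 231, 222, 287 and 312 CPM in C57BL/6J clean air. In CAST/EiJ clean air it was 185 and 202 CPM in numbers 1 and 2 and 81.4 to 112 CPM in RNA_101 to RNA_105, 2.17-fold lower on average (log2 -1.12 ± 0.20, adjusted p = 5.66e-05). Both sets of CAST/EiJ libraries lay under every C57BL/6J library, numbers 1 and 2 by the smaller distance. Dnah8, an outer arm chain known mainly from sperm, was 2.93-fold lower (adjusted p = 1.2e-08), with 15.5 to 26.6 CPM against 5.63 to 11.3 CPM. Dnah7b was 2.06-fold lower, but its near-identical copy Dnah7a was not called (log2 0.12, adjusted p = 0.534); reads could be divided between such copies in different ways, and both values are uncertain. Dnah1, Dnah2, Dnah6, Dnah9, Dnah11 and Dnah17 were 1.54-fold to 1.96-fold lower.

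With all libraries, the outer arm intermediate chains Dnaic1 and Dnaic2 and the inner arm light chain Dnali1 were also lower, by 1.55-fold, 1.38-fold and 1.40-fold. None of them was called in clean air without the libraries numbered over 100. Their log2 folds there were -0.213 (adjusted p = 0.437), -0.006 (adjusted p = 0.986) and 0.006 (adjusted p = 0.977). Drc1, a base subunit of the dynein regulatory complex, was not called (log2 -0.15 ± 0.13, adjusted p = 0.339). Of the tektins Tekt2 was lower with all libraries (1.74-fold, adjusted p = 0.0107), and Tekt1, Tekt3, Tekt4 and Tekt5 had no call. Tekt2 was not called without the libraries numbered over 100 (log2 -0.111, adjusted p = 0.786).

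Radial spoke and central apparatus genes moved in both directions. Rsph1, a protein of the spoke head, was 19.2, 15.2, 15.4, 16.95 and 20.3 CPM in C57BL/6J clean air. In CAST/EiJ it ran from 35.1 to 63.8 CPM with a median of 43.7, 2.64-fold higher (log2 1.40 ± 0.13, adjusted p = 6.25e-09), and every CAST/EiJ library lay above every C57BL/6J library. The spoke genes Rsph3a, Rsph3b and Rsph9 were 1.63-fold, 1.42-fold and 1.23-fold lower; Rsph3a and Rsph3b are near-identical copies and share the doubt on reads. Rsph4a was not called. Spag6, of the central apparatus, stood at 18.5 to 26.6 CPM in C57BL/6J and 34.3 to 55.6 CPM in CAST/EiJ, 1.97-fold higher (adjusted p = 1.82e-06), and a close copy elsewhere in the genome makes its level uncertain. Its partners Spag16 and Spag17 were 2.22-fold and 2.15-fold lower, again without overlap.

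Fam183b, a gene of ciliated cells, was nearly absent from the CAST/EiJ count columns. Its 5 C57BL/6J clean air libraries held 9.45, 9.19, 10.3, 12.8 and 17.01 CPM, from 1338 counts in all, and the 7 CAST/EiJ clean air libraries held 7 counts together, 4 of them at 0. Summed over libraries and scaled by depth, the ratio was 258 (95% interval for counting error only, 125 to 642). With BD the sums were 1802 against 9 counts, a ratio of 203 (107 to 444), with 2 of 5 CAST/EiJ libraries at 0. Its promoter in the reference, shown above, holds the pair, and the CAST/EiJ sequence was not analysed here. Spata18, also called Mieap, a p53-inducible protein of mitochondrial quality control, stood at 37.1, 39.5, 37.5, 41.8 and 41.1 CPM in C57BL/6J clean air. In CAST/EiJ it was 25.5 and 24.6 CPM in numbers 1 and 2 and 11.9 to 17.3 CPM in the other 5 libraries, 2.36-fold lower (adjusted p = 1.25e-06).

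Of the IFT genes, Ift57, a peripheral subunit of complex B, differed most. It stood at 22.7, 21.0, 22.7, 22.8 and 23.7 CPM in C57BL/6J clean air and between 44.3 and 51.2 CPM (median 48.5) in CAST/EiJ, 2.13-fold higher (log2 1.09 ± 0.06, adjusted p = 1.13e-12). Numbers 1 and 2, at 48.5 and 50.4 CPM, lay within the range of RNA_101 to RNA_105 here. Ift52 and Ift20 were 1.33-fold and 1.28-fold higher, and Ift140, Ift172, Ift81 and Ift46 were 1.64-fold, 1.36-fold, 1.27-fold and 1.20-fold lower. Ift20 was the IFT gene for which numbers 1 and 2 (29.7 and 29.9 CPM) both lay below RNA_101 to RNA_105 (36.1 to 45.9 CPM). The other 6 IFT genes had no call.

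**Figure D2:**
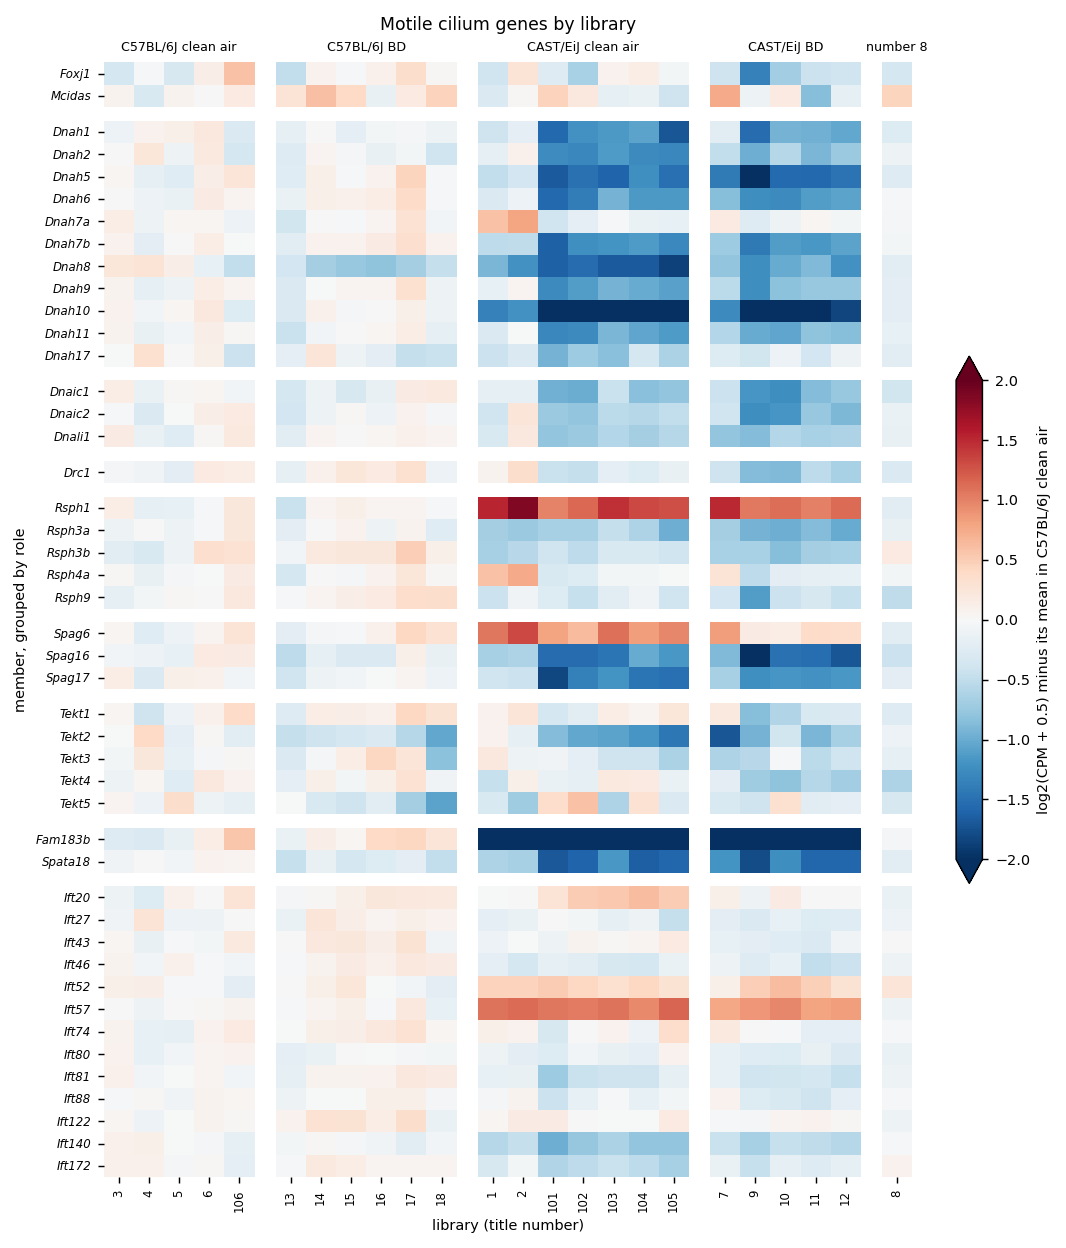
Level of each of the 45 members (rows, by role) in each library (columns, by group and title number), coloured by log2(CPM + 0.5) minus the gene's mean in C57BL/6J clean air; blue is lower, red higher, and values past 2 take the end colour. Rows such as Dnah2, Dnah5 and Dnah9 are paler in CAST/EiJ clean air numbers 1 and 2 than in RNA_101 to RNA_105, Dnah7a is red in numbers 1 and 2, Rsph1, Spag6 and Ift57 are red across CAST/EiJ, and number 8 resembles C57BL/6J in Fam183b, Rsph1 and Ift57.

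The strains were also compared after BD, where no library has a number over 100. Clean air without such libraries had 13 members lower (28.9%) and 6 higher, against 22.1% and 21.7% of all genes, with a median log2 fold of -0.15. Of the 45 members 30 were lower in CAST/EiJ BD than in C57BL/6J BD and 3 higher, against 22.3% and 20.4% of all genes, with a median log2 fold of -0.50 (all genes 0.00). Ranges did not overlap for 25 lower and 2 higher members (60.0%), against 29.4% of all genes. With number 8 kept, 28 were lower and 3 higher. Calls in the same direction with either exposure were made for 26 members and in opposite directions for 0. Dnah17, Ift20, Spag6 and Tekt2 were called in clean air alone, and Drc1, Foxj1, Ift27, Ift43, Ift88, Tekt1 and Tekt4 with BD alone, which does not by itself show that the strain difference depended on BD; that test comes below.

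Dnah5 was 222 to 356 CPM (median 268) in C57BL/6J BD and 98.4, 62.9, 88.5, 88.1 and 93.4 CPM in CAST/EiJ BD, 3.20-fold lower (log2 -1.68 ± 0.22, adjusted p = 1.68e-06). The groups were far apart, and number 8 held 218 CPM. Foxj1 was 32.9 to 59.3 CPM (median 48.1) in C57BL/6J BD and 34.7, 17.7, 28.3, 34.2 and 34.9 CPM in CAST/EiJ BD, 1.57-fold lower (adjusted p = 0.0102). The lowest C57BL/6J library, number 13, fell inside the CAST/EiJ range. Dnaic2 was 13.2 to 18.1 CPM (median 16.2) against 12.9, 6.95, 7.26, 9.88 and 8.96 CPM, 1.75-fold lower (adjusted p = 0.000428), without overlap. Rsph3b was 17.5 to 26.3 CPM (median 21.4) against 11.7, 11.6, 10.04, 11.3 and 11.7 CPM, 1.90-fold lower (adjusted p = 7.19e-07), also without overlap. Mcidas, at 0.580 to 1.30 CPM (median 1.01) against 1.51, 0.613, 0.851, 0.160 and 0.553 CPM, had no call (log2 -0.40 ± 0.35), and its CAST/EiJ libraries spread over more than the whole C57BL/6J range. Dnah10 was 3.57-fold, Spag16 2.48-fold, Dnah6 2.32-fold and Spata18 2.25-fold lower. Rsph1 was 2.33-fold, Ift57 1.79-fold and Ift52 1.32-fold higher.

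**Figure D3:**
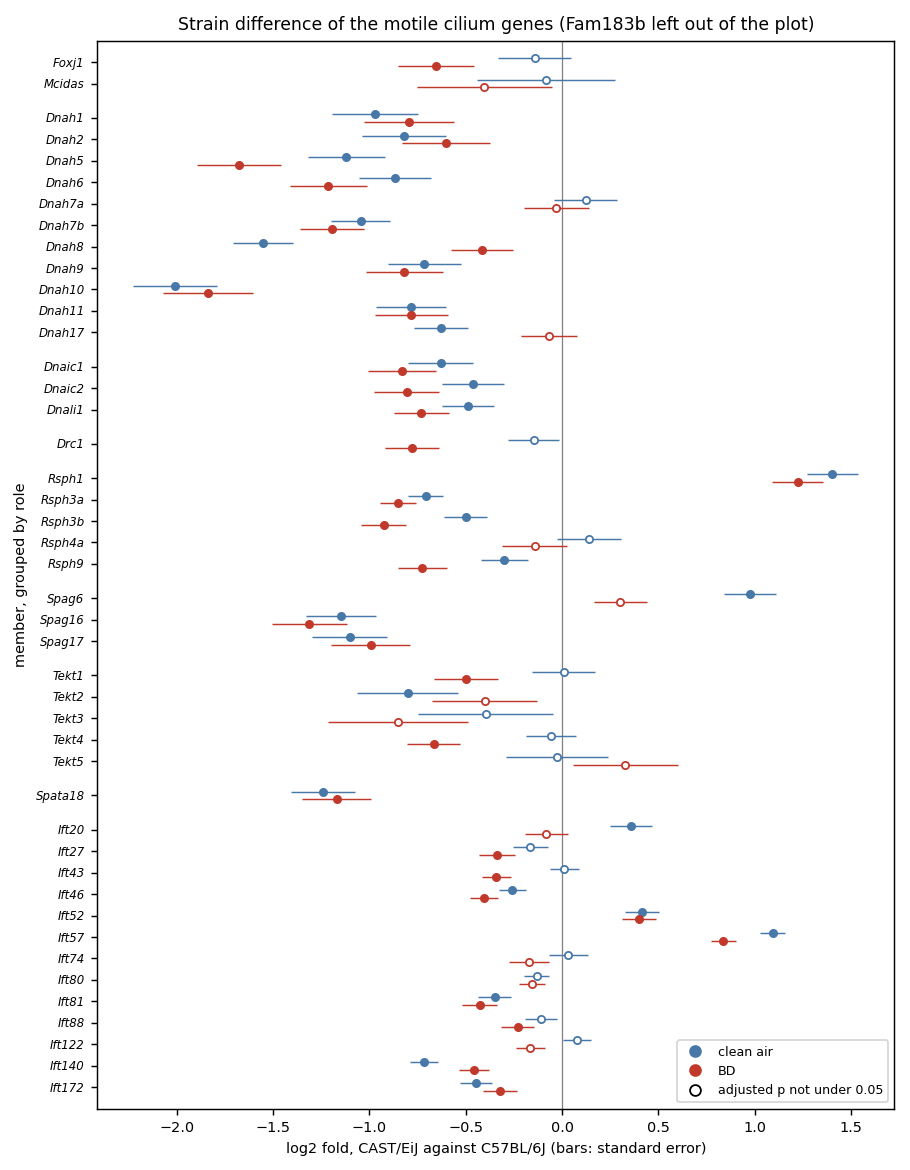
Log2 fold of CAST/EiJ against C57BL/6J (horizontal axis; bars are standard errors) for 44 members by role, in clean air (blue) and after BD (red); open points were not called, and Fam183b is left out of the plot. Heavy chains apart from Dnah7a lie left of 0 with either exposure, and Rsph1, Ift57, Ift52 and Spag6 lie to the right.

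BD changed few motile cilium genes in C57BL/6J. One of the 45, Dnah8, was lower and 0 were higher, against 6.49% lower and 4.2% higher over all genes. At an unadjusted p under 0.05, 2 members were lower and 1 higher, and DESeq2 called 1 lower and 0 higher. The median log2 fold was 0.01, against 0.00 for all genes. Dnah8 stood at 25.9, 26.6, 24.2, 19.4 and 15.5 CPM in clean air, the last in RNA_106, and at 12.4 to 16.8 CPM (median 13.5) with BD. It was 1.58-fold lower (log2 -0.66 ± 0.16, adjusted p = 0.00916), and RNA_106 was the one clean air library inside the BD range. Spata18 was 37.1 to 41.8 CPM in clean air and 27.7 to 35.4 CPM (median 31.7) with BD, ranges that did not overlap, but had no call (adjusted p = 0.254). Tekt2 also had ranges that did not overlap, 5.58 to 8.91 CPM against 2.97 to 5.25 CPM, and no call (adjusted p = 0.192). These were the 2 such members of 45, against 7.92% of all genes. Both were called when only the C57BL/6J groups entered the fit, and with the title number over 100 as a covariate. Foxj1, at 36.1 to 69.5 CPM in clean air and 32.9 to 59.3 CPM with BD, had a log2 fold of -0.01 ± 0.20, and Fam183b stood at 9.19 to 17.01 CPM and 10.4 to 15.7 CPM, in both cases with wide overlap. The p53 target list, 9 of 15 higher and 1 lower with BD in C57BL/6J, shows that other genes did change in these libraries: Bax, a promoter of apoptosis, was 1.46-fold higher (adjusted p = 7.74e-05). That list was chosen with results on these libraries known.

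In CAST/EiJ, 4 members were lower with BD and 0 higher, against 3.37% and 3.86% of all genes: the central apparatus gene Spag6, the tektin Tekt4, Drc1 and Ift57. The members' median log2 fold was -0.16, against -0.02 for all genes, and 36 of 45 folds were below 0. None of the 45 had ranges that did not overlap, against 2.07% of all genes; at an unadjusted p under 0.05, 13 were lower and 4 higher. DESeq2 called 7 lower and 1 higher. In a fit of the CAST/EiJ groups alone 0 of the 43 members tested there were called (smallest adjusted p = 0.0564), with 11 lower and 2 higher at an unadjusted p under 0.05.

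Spag6 was 46.5 and 55.6 CPM in clean air numbers 1 and 2 and 34.3 to 47.4 CPM in RNA_101 to RNA_105. With BD it was 39.2, 24.5, 24.3, 28.6 and 28.3 CPM, 1.499-fold lower (log2 -0.58 ± 0.13, adjusted p = 0.0181). Number 7, the first of these, was the BD library inside the clean air range. Tekt4 was 6.78 to 10.95 CPM (median 8.601) in clean air and 8.13, 5.65, 5.22, 6.24 and 5.67 CPM with BD, 1.49-fold lower (adjusted p = 0.0181). Here number 1, at 6.78 CPM, was the lowest of the clean air libraries. Drc1 was 21.4 and 26.1 CPM in numbers 1 and 2 and 14.5 to 18.2 CPM in RNA_101 to RNA_105, and 15.1, 10.9, 10.7, 13.96 and 12.8 CPM with BD, 1.45-fold lower (adjusted p = 0.0246). Ift57 was 38.9, 42.0, 44.8, 39.9 and 40.5 CPM with BD, 1.17-fold lower than in clean air (adjusted p = 0.0301), a small step beside its strain difference. Number 10, at 44.8 CPM, reached into the clean air range. Foxj1 (log2 -0.53, adjusted p = 0.085), Dnaic2 (-0.44, adjusted p = 0.0879) and Dnah8 (0.48, adjusted p = 0.0582) were not called, the last with a fold above 0.

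Without the libraries numbered over 100, 15 members were lower with BD in CAST/EiJ and 0 higher (25 and 0 at an unadjusted p under 0.05), against 3.03% and 0.501% of all genes, with a median log2 fold of -0.51 (all genes 0.01). This compares 5 BD libraries with clean air numbers 1 and 2. All 15 were axonemal, of 32, and 0 of the 13 IFT genes were called. Heavy chains made up 7 of the 15: Dnah5 (2.24-fold lower, adjusted p = 0.00173), Dnah6 (1.86-fold, adjusted p = 0.00173), Dnah9, Dnah11, Dnah2, Dnah7a and Dnah7b (1.48-fold to 1.69-fold). The others were Dnaic2, Dnali1, Drc1 (1.86-fold, adjusted p = 0.00425), Rsph4a, Spag6 (1.75-fold, adjusted p = 0.0118), Spag16, Spag17 and Spata18. Of the 4 members called with all libraries, Drc1 and Spag6 were called again, and Tekt4 (adjusted p = 0.27) and Ift57 (adjusted p = 0.128) were not. Both numbers 1 and 2 lay above every CAST/EiJ BD library for 18 of the 32 axonemal members and 2 of the 13 IFT genes. The share over all genes was not worked out for this count. With the title number over 100 as a covariate, 2 members were lower and 0 higher, Drc1 and Spag6 again. Leaving out number 2 alone gave 5 lower and 4 higher, and leaving out number 1 alone gave 6 lower and 1 higher. Without number 9 of the BD group, 2 were lower (Spag6 and Tekt4). Without RNA_106 of C57BL/6J, 6 were lower and 1 higher, and with number 8 kept, 5 were lower and 4 higher. The count of axonemal genes lower with BD in CAST/EiJ thus ranged with the clean air libraries used, and which of them represent the strain in clean air was not tested.

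**Figure D4:**
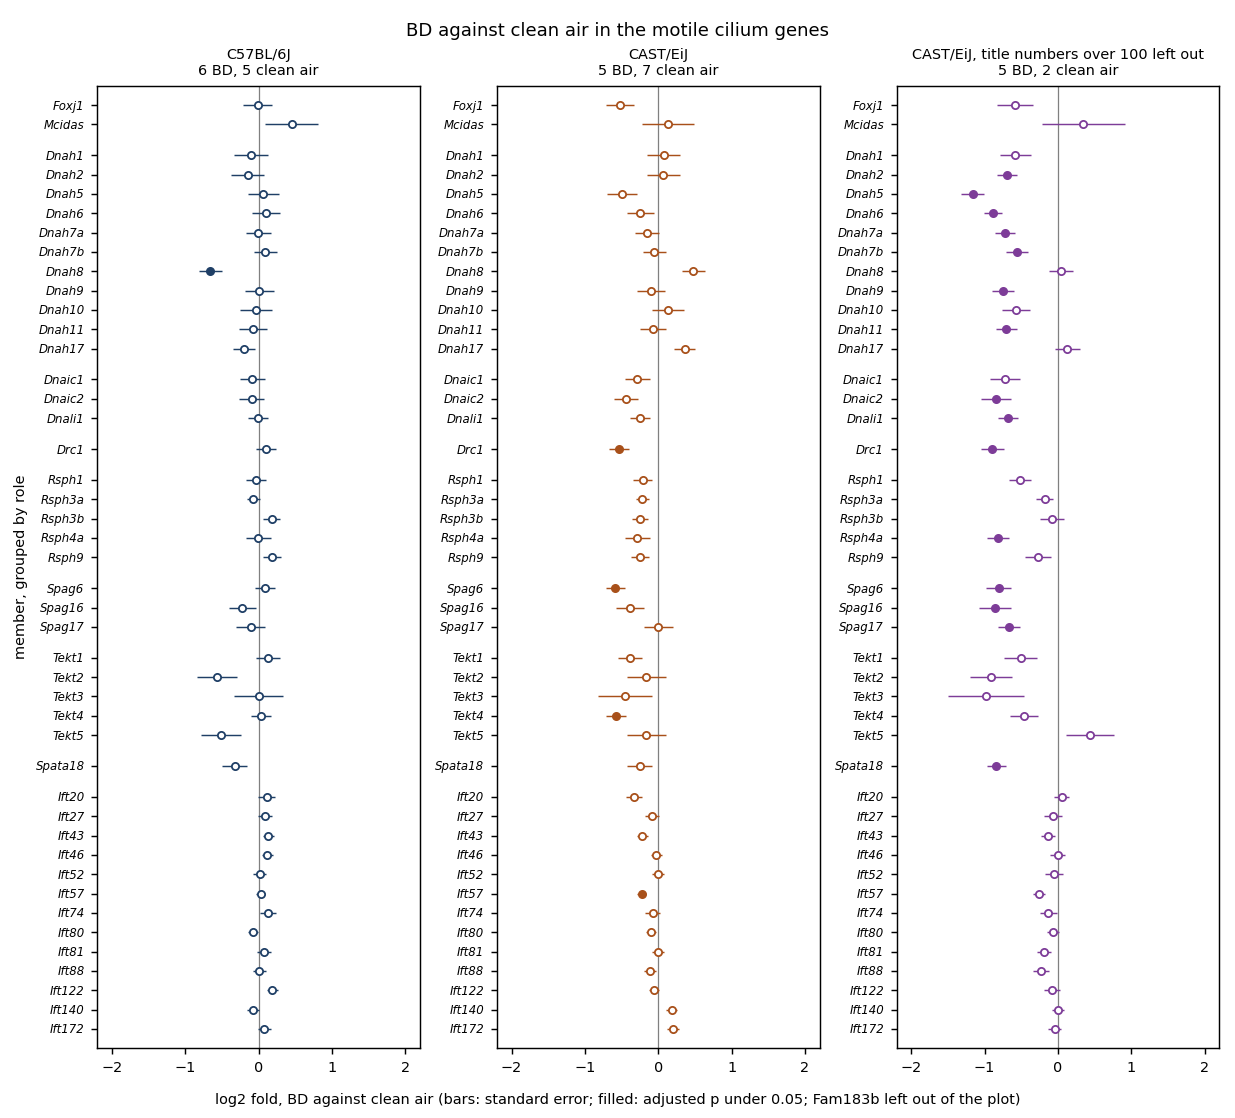
Log2 fold of BD against clean air (horizontal axis; bars are standard errors) for 44 members by role in C57BL/6J, in CAST/EiJ, and in CAST/EiJ without the libraries numbered over 100; filled points were called, and Fam183b is left out. One point is filled in C57BL/6J (Dnah8), 4 in CAST/EiJ, and 15, all lower, in the third panel, where IFT points at the bottom stay near 0.

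Whether BD acted differently in the strains was tested as an interaction, the log2 fold with BD in CAST/EiJ minus that in C57BL/6J. Of 45 members 4 were below 0 and 1 above, against 3.82% and 5.62% of all genes, with a median of -0.16 (all genes -0.02). Dnah8, lower with BD in C57BL/6J, had an interaction of 1.14 ± 0.22 (adjusted p = 0.0109). Its 5 CAST/EiJ BD libraries stood at 12.4, 8.92, 10.7, 11.6 and 9.17 CPM, against 11.3 and 9.20 CPM in numbers 1 and 2 and 5.63 to 7.22 CPM in RNA_101 to RNA_105. Without the libraries numbered over 100, the CAST/EiJ log2 fold of Dnah8 was 0.04 ± 0.16 and its interaction 0.80 ± 0.20 (adjusted p = 0.0532), without a call. Spag6 (-0.67 ± 0.19, adjusted p = 0.0337), Drc1 (-0.63 ± 0.19, adjusted p = 0.0404), Tekt4 (-0.61 ± 0.19, adjusted p = 0.0435) and Ift43 (-0.35 ± 0.11, adjusted p = 0.0406) were below 0. In C57BL/6J these had values that overlapped between exposures: Spag6 18.5 to 26.6 and 18.8 to 29.3 CPM, Drc1 17.6 to 23.1 and 17.9 to 25.4 CPM, and Tekt4 8.004 to 11.1 and 8.28 to 11.9 CPM. Ift43, a subunit of IFT complex A, went from 28.1, 24.5, 26.7, 26.1 and 31.3 CPM to 25.8 to 33.3 CPM (median 30.9) in C57BL/6J. In CAST/EiJ it went from 25.1 to 31.1 CPM (median 27.9) to 24.2, 23.5, 22.9, 22.3 and 25.6 CPM. Neither single-strain difference of Ift43 was called.

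Without the libraries numbered over 100, 6 members had a negative interaction and 0 a positive one, against 1.12% and 0.681% of all genes: Dnah5 (-1.30 ± 0.20), Dnah6 (-1.01 ± 0.16), Drc1 (-1.03 ± 0.20), Spag6, Rsph4a and Dnali1. With the title number as a covariate Dnah8 alone was called, above 0. With number 8 kept, Dnah8, Ift20, Spag6 and Tekt4 were called (1 above 0 and 3 below), and Drc1 and Ift43 were not. Leaving out single libraries gave between 1 and 10 calls, 10 without RNA_106 and 7 without number 1, 2 or 18. The count was 1 without number 4, 5, 9, 10, 16 or 17 or without C57BL/6J clean air number 3, in each case Dnah8, 2 without number 15, RNA_104 or RNA_105, and 3 without number 11, RNA_102 or RNA_103.

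**Figure D5:**
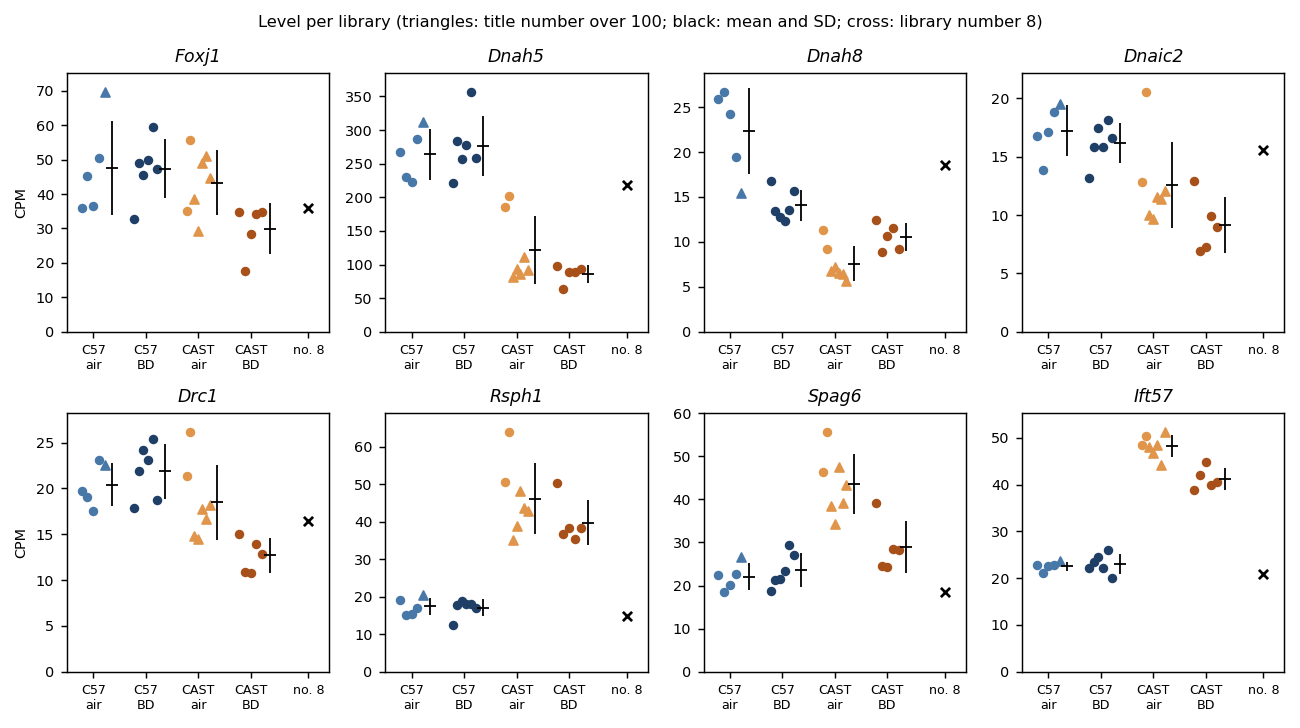
CPM (vertical axis, from 0) of 8 members in each library, by strain and exposure; triangles are title numbers over 100, black bars the mean and SD without number 8, and the cross is number 8. Dnah5 falls into levels of 185 and 202 CPM in CAST/EiJ clean air numbers 1 and 2 and 81.4 to 112 CPM in the other 5, and Rsph1 and Ift57 separate the strains whatever the exposure, with number 8 at the level of C57BL/6J.

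Within groups, with the 2 sets of CAST/EiJ clean air libraries taken as 1 group, many axonemal genes moved together. Over the 23 libraries the median Pearson correlation between 2 axonemal members, taken on deviations from the group mean of log2 CPM, was 0.42 (quartiles 0.09 and 0.76; 496 pairs), and between 2 IFT genes 0.13 (-0.11 and 0.36; 78 pairs). Libraries and depth are shared by all pairs, and these values are descriptions. The split of CAST/EiJ clean air by title number enters them, and its part was not tested. With the median deviation of the axonemal members, the heavy chain Dnah9 correlated at 0.98, Rsph4a at 0.96, Dnah7b at 0.96 and Dnah11 at 0.96. Foxj1 stood at 0.45, Dnah8 at 0.42, Mcidas at -0.01, Fam183b at -0.29 and Tekt5 at -0.53. The widest swings were those of CAST/EiJ clean air numbers 1 and 2 (median deviations 0.48 and 0.54) and RNA_101 (-0.35), with 0.28 in CAST/EiJ BD number 7 and -0.28 in C57BL/6J BD number 13.

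Among 15733 genes outside the set whose mean reached 1 CPM, the 15 most like the axonemal median by this correlation were Hydin (0.96), a giant protein of the central apparatus, Wdr96 (0.95), Wdr52 (0.94), Gm973 (0.93), Cdhr3 (0.93), a cadherin of ciliated cells, Lca5, Fam216b, Ankfn1, Enah, Map3k19, Rgs22, Gpr98, Rpgrip1l, Ccdc78 and E230008N13Rik (0.91). Of the 100 most alike, 39 were on the 3 other lists of motile cilium genes, which hold 0.934% of the genes ranked. The median correlation was 0.71 for other axoneme and ciliated cell genes, 0.60 for dynein assembly and docking factors and 0.38 for ciliogenesis regulators. It was 0.13 for other IFT, motor and BBSome genes, 0.29 for club cell genes, 0.52 for cartilage, -0.60 for alveolar type 2 cells, -0.52 for alveolar type 1 cells and -0.55 for endothelium, against -0.03 for all genes ranked. The same split of CAST/EiJ clean air enters this ranking and these medians, and its part was not tested.

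Motile cilium genes outside the rule were also often lower in CAST/EiJ, but in clean air their counts depended on the libraries used. With all libraries, 64 of the other axoneme and ciliated cell genes tested (62.1%) were lower in CAST/EiJ and 6 (5.83%) higher, against the 31.0% and 29.4% of all genes, with a median log2 fold of -0.46. Tmem232 was 6.24-fold lower (11.9 to 1.90 CPM in the means). Of 25 dynein assembly and docking factors 12 were lower, among them Dnaaf3 (1.87-fold) and Ccdc39 (1.70-fold), and 5 higher, among them Dnal1, an outer arm light chain (1.51-fold). Of 21 ciliogenesis regulators 14 were lower and 1 higher: Myb was at 23.8 and 13.7 CPM, Trp73 at 8.17 and 4.15 CPM, Rfx3 at 54.5 and 33.9 CPM, and Ulk4 was 2.25-fold lower. Of 31 other IFT, motor and BBSome genes 7 were higher and 3 lower. With the libraries numbered over 100 left out, 18 of the other axoneme genes (17.5%) were lower and 13 higher in clean air, against 22.1% and 21.7% of all genes, with a median of -0.07. In that setting 2 assembly and docking factors were lower and 5 higher, 7 regulators lower and 1 higher, and 2 other IFT genes lower and 10 higher. After BD, where no library is numbered over 100, the counts lower and higher were 79 and 1, 17 and 3, 10 and 1, and 9 and 2 for the 4 lists in this order, against 22.3% and 20.4% of all genes.

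With BD in C57BL/6J these lists changed little, as the members did: Stk33 was 1.31-fold and Bbs9 1.17-fold higher, Rfx2 1.43-fold and Rfx7 1.42-fold lower, and no other gene of the 4 was called. In CAST/EiJ, with all libraries, 14 of the other axoneme genes (13.6%, against 3.37% of all genes) were lower with BD and 0 higher. Of their folds 94 were below 0 and 9 above, with a median of -0.26. Tuba1a, a tubulin, was 1.32-fold lower and Ubxn10 1.53-fold lower. Lower too were 4 of 25 assembly and docking factors (Lrrc48, now known as Drc3, 1.45-fold), 4 of 31 other IFT genes, and 1 of 21 regulators, a share near that of all genes, Gmnc, which acts upstream of Mcidas (1.97-fold, adjusted p = 0.026). In C57BL/6J Gmnc had a log2 fold of -0.635 with BD (adjusted p = 0.099), and its interaction was not called (-0.345, adjusted p = 0.536). Without the libraries numbered over 100 the counts lower with BD in CAST/EiJ were 41 (39.8%) of the other axoneme genes (median -0.62, 1 fold above 0), 5 of 25, 0 of 31 and 2 of 21, with 0 higher in each, against 3.03% of all genes. The interaction was negative for 6 of the other axoneme genes, 1 of 25, 4 of 31 and 0 of 21, and positive for Rfx7 alone, against 3.82% and 5.62% of all genes. With those numbered over 100 left out it was negative for 19 of the other axoneme genes (18.4%), 3 of 25, 2 of 31 and 2 of 21, against 1.12% of all genes, and positive for 0, Rfx7 included. These lists were written with results on these libraries known, and members are not counted in them.

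Markers of other cells stood beside these results. Of 15 club and secretory cell genes tested 8 (53.3%) were lower with BD in CAST/EiJ and 0 higher, against 3.37% and 3.86% of all genes. Scgb3a2 was 2.85-fold and Scgb1a1, the secretoglobin of club cells, 1.56-fold lower. The summed level of the 16 in the table was 14590 to 20110 CPM in clean air and 8964 to 13200 CPM with BD. In C57BL/6J 3 of 15 were higher with BD, among them Aldh1a1 (1.67-fold), and sums ran from 14560 to 19080 and from 14140 to 18890 CPM. Between strains in clean air 4 (26.7%) were lower in CAST/EiJ and 1 (6.67%) higher, no more than the 31.0% and 29.4% of all genes. After BD 12 of 15 (80.0%) were lower and 1 higher, against 22.3% and 20.4% of all genes. When those numbered over 100 were left out, 7 of 15 (46.7%) were lower with BD in CAST/EiJ, against 3.03% of all genes. Between strains in clean air 2 were lower and 4 higher in that setting, against 22.1% and 21.7% of all genes. No club cell gene was at 0 throughout a group, and the part of club cell content in the axonemal results was not tested. Of 10 cartilage genes 3 (30.0%) were higher in CAST/EiJ clean air and 0 lower, a share higher near the 29.4% of all genes. Without the libraries numbered over 100 it was 8 of 12 and 0, against 21.7% of all genes higher. With BD in CAST/EiJ 0 of 10 were lower, and 4 of 12 (33.3%) without those libraries, against 3.37% and 3.03% of all genes. Cartilage sums reached 94.3 CPM in CAST/EiJ clean air against 14.1 CPM in C57BL/6J clean air, and 21.8 and 31.9 CPM with BD in C57BL/6J and CAST/EiJ. Of 16 basal and squamous genes 3 (18.8%) were higher in CAST/EiJ clean air, a share below the 29.4% of all genes. With the libraries numbered over 100 left out it was 5 of 18, against 21.7% of all genes. Sums differed within every group (9.56 to 1659 CPM in C57BL/6J clean air). With BD in CAST/EiJ 3 of 12 alveolar type 1 genes were lower, as were 0 of 12 alveolar type 2, 0 of 8 neuroendocrine, 1 of 11 B and T cell and 1 of 8 endothelial genes, against 3.37% of all genes. Leaving out the libraries numbered over 100, none of these 5 lists had a gene lower, and 1 alveolar type 2 gene was higher. In C57BL/6J the counts lower with BD were 0, 1, 1, 8 and 2, in the same order, against 6.49% of all genes. Of 12 germ cell genes, kept because tektins, Dnah8, Dnah17 and Spag6 also serve sperm tails, 3 passed the filter and 1, Ddx4, was lower in CAST/EiJ (0 in clean air without the libraries numbered over 100); summed levels were 11.3 to 23.3 CPM in every library.

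The small RNA libraries gave a second readout that the rule did not use. The miR-34 and miR-449 family, known to be abundant in multiciliated cells, shares the seed GGCAGUG (bases 2 to 8, in capitals), and its mature sequences in the RefSeq table (GRCm38.p6) are shown because the levels below are read by arm.
mmu-miR-449a-5p: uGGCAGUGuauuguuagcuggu
mmu-miR-449c-5p: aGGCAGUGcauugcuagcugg
mmu-miR-34b-5p: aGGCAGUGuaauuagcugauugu
mmu-miR-34a-5p: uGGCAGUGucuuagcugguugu

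They lie at chr13:113037549-113037570 (plus strand), chr13:113036008-113036028 (plus strand), chr9:51103610-51103632 (minus strand) and chr4:150068473-150068494 (plus strand). The miR-449a locus lies 43.7 kb from the start of Mcidas in that assembly. Levels are per 1000000 miRNA counts after scaling and cannot be set beside mRNA levels. In C57BL/6J BD, numbers 15, 16 and 17 held 7974463, 8474182 and 7676679 counts, and number 18 held 3146118. The C57BL/6J clean air libraries held 2066588 to 3415561 counts. The part of this difference in depth in the levels with BD was not tested. In C57BL/6J, miR-449a-5p stood at 102.7, 72.0, 94.97, 97.98 and 208 CPM in clean air, the last in smallRNA_106, and at 177, 198, 393 and 284 CPM with BD. The mean log2 difference was 1.22, 2.33-fold, with an exact two-sided permutation p of 0.0476 and an adjusted p of 0.143 over the 3 tests made, so it did not pass; the smallest p the design allows was 0.0159. The library smallRNA_106 lay inside the BD range. In CAST/EiJ it was 286 ± 162 CPM (SD, n = 7) in clean air and 380, 207 and 177 CPM with BD, a log2 difference of -0.09 (exact permutation p = 0.883). Clean air ran from 128 CPM in number 1 to 622 CPM in smallRNA_104, wider than the BD range, and number 8 held 113 CPM.

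The related miR-449c-5p was 134 ± 80.4 CPM (SD, n = 5) and 315 ± 20.6 CPM (SD, n = 4) in C57BL/6J without and with BD, and 356 ± 89.7 (n = 7) and 477 ± 279.5 CPM (n = 3) in CAST/EiJ. For miR-34b-5p the means were 761 ± 49.2 and 1030 ± 132 CPM in C57BL/6J and 486 ± 153 and 273 ± 9.58 CPM in CAST/EiJ. For miR-34a-5p, a p53 target made in many cell types, they were 91.0 ± 15.7 and 204 ± 52.4 CPM in C57BL/6J and 111 ± 31.4 and 94.5 ± 8.05 CPM in CAST/EiJ. These 3 were not tested, and they come from the same libraries of unequal depth. MiR-34c-5p, at 12000 ± 2090 CPM (SD, n = 5) and 12500 ± 2146 CPM (SD, n = 4) in C57BL/6J, did not differ with BD beyond the spread (log2 0.06, exact permutation p = 0.73). It has no value in the columns labelled CAST/EiJ, so its test there was not possible.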

How the data were processed

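RNA-seq and small RNA libraries of mouse lung were used; the 24 ATAC-seq samples of the series were not analysed here. The authors deposited RNA counts per gene symbol; the submitters' processing notes name GSNAP, with mm9 as the build, and the counting tool, its annotation and its use of strand are not given in the sources used here. Their deposited small RNA table holds estimated counts (expected counts that need not be whole) per mature miRNA; the submitters' processing notes name Bowtie, with mm9 as the build.

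Of 23893 RNA rows 21 lack a value in columns labelled CAST/EiJ and were left out; of 480 miRNA rows 320 are complete. No 2 libraries agreed within sampling noise (smallest chi-square per degree of freedom 5.20 over 276 RNA pairs). RNA totals were 10597990 to 50001571 counts and miRNA totals 2066588 to 8474182, so low genes are the least precise; intervals cover counting error only. The RNA test was edgeR 4.0.16 (quasi-likelihood, filterByExpr, TMM, robust, 1 mean per group) in R 4.3.3 over 23 libraries, with Benjamini-Hochberg adjustment over 17377 genes and a threshold of 0.05; the script was tested on simulated data. Levels are CPM of the TMM-scaled library, not corrected for length, so they are compared within a gene only; correlations used log2 CPM with a prior count of 2. MiRNA levels were compared by exact permutation of mean log2 CPM. Alternatives used DESeq2 1.42.0, limma 3.58.1, other scaling, filters, library sets and each library left out. Sequences come from RefSeq tables of GRCm38.p6.

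Every member is reported; single-library values are given for Foxj1, Mcidas, Fam183b, Spata18 and, per role, the members with the smallest adjusted p for the interaction and for BD; from other lists up to 2 genes per direction are named. Dnah2, Dnah10, Ift20 and Tekt2 values, and the regulators Myb, Trp73 and Rfx3, were added after their values were seen. The members and lists were chosen with earlier results of these data known.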

Additional observations from a re-analysis of the deposited data

Results flagged for a closer look

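In 14 of 197 groups tested, 1 library lay apart from the rest of its group by Dixon's criterion, which chance does in about 1 group in 20 (9.85 expected). Library number 7 of CAST/EiJ BD was high for Spag17, at 24.8 CPM (others 16.8 to 17.5), for Rsph1, at 50.3 CPM (others 35.4 to 38.3), and for Spag6, at 39.2 CPM (others 24.3 to 28.6). It also had the highest summed axonemal level of that group. Number 9 of the same group was low for Dnah5, at 62.9 CPM (others 88.1 to 98.4), and for Rsph9, at 4.49 CPM (others 7.35 to 8.08), and had the lowest sum. Number 10 was low for Rsph3b, at 10.04 CPM (others 11.3 to 11.7), and high for Tekt5, at 3.29 CPM (others 1.77 to 2.13).

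In CAST/EiJ clean air, number 2 was high for Dnaic2, at 20.5 CPM (others 9.70 to 12.9), and for Dnali1, at 20.45 CPM (others 9.98 to 14.03). In C57BL/6J BD, number 13 was low for Dnali1, at 14.96 CPM (others 17.6 to 18.9), and for Rsph1, at 12.6 CPM (others up to 18.8). In the small RNA libraries, smallRNA_106 of C57BL/6J clean air was high for miR-449a-5p, at 208 CPM (others 72.0 to 102.7), and for miR-449c-5p, at 276 CPM (others 85.9 to 119), and number 15 of C57BL/6J BD was low for miR-449c-5p, at 283.8 CPM (others 323 to 326).

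By the interaction test 5 of 45 members were called, 4 below 0 and 1 above, against 3.82% and 5.62% of all genes. Over 30 other settings the call was kept in 29 for Dnah8, 21 for Spag6 and 16 for Drc1. It was kept in 10 for Tekt4 and 9 for Ift43. The log2 difference was 1.14 for Dnah8, -0.67 for Spag6, -0.63 for Drc1, -0.61 for Tekt4 and -0.35 for Ift43. Dnah8, Tekt4 and Ift43 had no such call without the libraries numbered over 100.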

How the results depend on the processing

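The counts are members called of 45, out of 31 settings. BD in C57BL/6J gave 1, and 3 with the title number over 100 as a covariate or with only the groups compared in the fit (1 to 2 with each library left out). BD in CAST/EiJ gave 4, against 9 with number 8 kept, 2 with the covariate, 15 without title numbers over 100, 0 with only the groups compared in the fit and 8 with DESeq2 (2 to 9 with each library left out). The strain difference in clean air gave 30, and 19 without title numbers over 100 (29 to 31); with BD it gave 33 (29 to 34). The interaction gave 5, and 7 with DESeq2, 6 without title numbers over 100 (2 of the 5 among them) and 4 with number 8 kept. It gave 2 with no filter on low counts, 1 with the covariate and 1 with limma-voom (1 to 10). Fewer libraries enter without title numbers over 100, and the clean air levels of CAST/EiJ differ between the 2 sets of numbers. The cause of the changed counts was not tested in any setting. Of the named calls Dnali1 turned direction, to a log2 fold of 0.006 in clean air without title numbers over 100. DESeq2-style size factors gave the same counts.

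For miR-449a-5p with BD in C57BL/6J the log2 difference was 1.00 to 1.46 with each library left out (1.001 to 1.457). In CAST/EiJ it was 0.54 (0.535) without title numbers over 100, and -0.419 to 0.132 with each library left out, with 0.125 and 0.02 between. For miR-34c-5p it was -0.001 without TMM, and -0.022 to 0.15 with each left out, -0.003 and -0.0 among them. No paired analysis was possible because no groups of an assay share a title number. Low counts limit the precision of Mcidas, Tekt3 and, in CAST/EiJ, Fam183b.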
